A study of Homo sapiens with 6 samples.

Results

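The baseline transcriptome of A549 cells was read from the control libraries of an RNA-seq series on APEX1, a DNA repair endonuclease that also acts as a redox regulator of transcription factors. The 3 libraries labelled Ctrl, of 6 in the series, were chosen by their labels, and the other 3, from cells given an APEX1 plasmid, were not compared with them. A549 is an established line from a human lung adenocarcinoma. The cells were grown in DMEM with fetal bovine serum and penicillin and were transfected transiently with the control plasmid, built on the pIRES-hrGFP-1a vector, so that all 3 libraries come from vector-treated cells and untransfected cells were not analysed here. Polyadenylated RNA was sequenced with a stranded kit. Levels are given as FPKM, fragments per 1000 bases of gene per 1000000 mapped reads, which allows genes to be compared per length within a library, and a gene was called detected at a mean of at least 1 FPKM. Nothing in the labels says that the 3 libraries come from separate cultures, so their spread may be technical.

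A549 cells are used as a model of the alveolar type II cell, the lung epithelial cell that makes surfactant, although they are cancer cells. The line is known to carry loss-of-function changes in STK11, KEAP1 and SMARCA4, and a deletion that takes in CDKN2A. KEAP1 is the adaptor that sends NRF2, the transcription factor encoded by NFE2L2, to degradation. Without it NRF2 enters the nucleus and, with a small MAF protein, binds antioxidant response elements before genes for glutathione and thioredoxin metabolism, NADPH production, aldo-keto reductases and ferritin.

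The Ctrl libraries held 28131955, 34398771 and 35834880 counts over genes, and 11150, 11168 and 11929 genes reached 1 FPKM in Ctrl 1, 2 and 3. Ctrl 3 stood apart from the other two. Across the 11499 detected genes, Pearson's r of log2(FPKM + 1) was 0.997 between Ctrl 1 and 2 and 0.972 between Ctrl 3 and either of them. With each library scaled to the same FPKM sum, 1.36% of detected genes differed more than 1.5-fold between Ctrl 1 and 2, against 33.0% between Ctrl 1 and 3 and 33.9% between Ctrl 2 and 3. On this scale Ctrl 3 was more than 2-fold above the mean of the other libraries in 1636 genes and more than 2-fold below it in 14. The scaling raises Ctrl 3, whose FPKM sum was 351084 against 400004 and 392411. The median log2 ratio of Ctrl 3 to the others was 0.230 after it.

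The difference moved with the base composition of the transcripts. Over 10106 detected protein-coding genes with a GENCODE transcript, Spearman's rho between GC content and the log2 ratio of Ctrl 3 to the others was -0.841, and that between transcript length and the same ratio was 0.484. These correlations are across genes that share the same libraries and are a description. Of 10 nearly equal bins of these genes by GC content, in the lowest, at a median of 37.4%, the median level in Ctrl 3 was 2.05 times that in the others. In the highest, at 64.8%, it was 0.786 times that in the others. Levels of several AT-rich, long transcripts, such as MET and BRAF, are therefore given in each library. For some lists the count of detected genes is given with and without Ctrl 3. Over all genes 11499 were detected with Ctrl 3 and 11136 without it, and of protein-coding genes 10137 and 9811. The part of GC content in any single level was not tested.

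**Figure D1:**
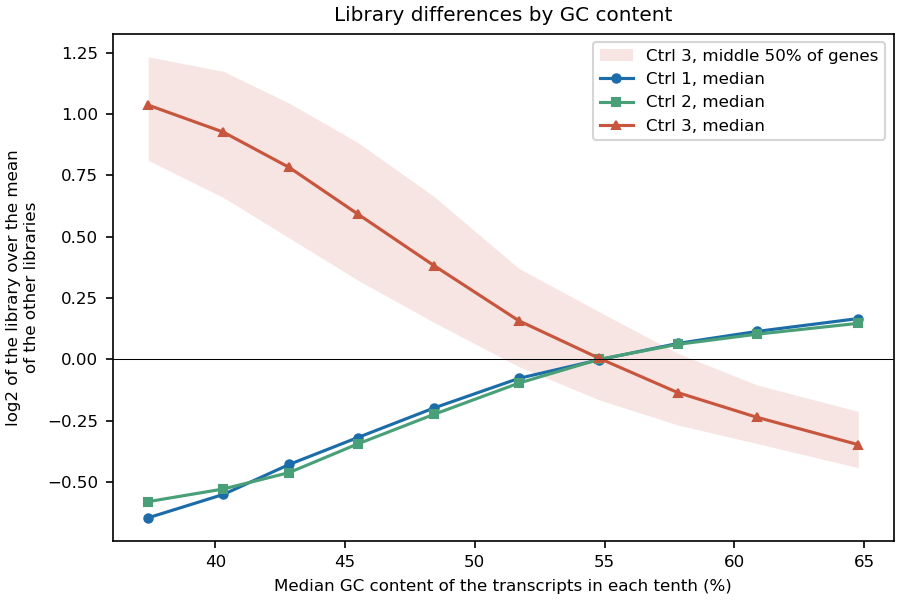
Median log2 ratio of each Ctrl library to the mean of the other libraries (y axis) in 10 nearly equal bins of 10106 detected protein-coding genes ordered by transcript GC content (x axis, %), each library scaled to the same FPKM sum; the shaded band holds the middle 50% of genes in Ctrl 3. Ctrl 3 runs from 1.04 at 37.4% GC to -0.35 at 64.8% GC, while Ctrl 1 and Ctrl 2 lie close together and run the other way.

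A small number of genes held most of the signal. Of 17388 protein-coding genes listed, 10137 were detected (58.3%), beside 1362 genes of other types. The 10 most abundant genes held 11.4% ± 0.778 of all FPKM (SD, n = 3 libraries), the top 100 held 40.4% ± 1.87, and 197 genes held 50% of it. At the upper end, 57 genes had a mean of at least 1000 FPKM and together 32.3% of the FPKM. The 56 protein-coding genes among them had a median transcript length of 986.5 nt. The 6064 protein-coding genes between 1 and 10 FPKM had a median length of 3744 nt. Over the same 10106 genes, level and transcript length had a rho of -0.394, and level and GC content one of 0.279.

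Ferritin led the list. FTL, the ferritin light chain (ENSG00000087086.13, plus strand, chr19:48965309-48966879), was the most abundant gene, at 7840.3, 7255, and 5186 FPKM in Ctrl 1, 2 and 3. FTH1, the ferritin heavy chain with the iron-oxidising site, had rank 4, at 4638, 4204 and 3813 FPKM. The ratio of FTH1 to FTL was 0.635 ± 0.0866 (SD, n = 3), and both chains together made up 2.87% ± 0.282 of all FPKM. Of the FTH1 exon sequence, 63.2% lies within exons of BEST1 on the opposite strand, and whether counting used strand was not given in the sources used here.

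The respiratory chain followed. Among the mitochondrially encoded proteins, the cytochrome c oxidase subunit MT-CO1 stood at 5719, 5386 and 4666 FPKM. A second subunit, MT-CO2, stood at 5069, 5507 and 4433 FPKM and MT-CO3, the third, at 3621, 3929.7 and 3479 FPKM. All 13 mitochondrially encoded proteins exceeded 100 FPKM, down to MT-ND5, a complex I subunit, at a mean of 382 FPKM. The mitochondrial genome as a whole gave 7.55% ± 0.264 of FPKM. Its rRNA gave 0.574%, 0.576% and 0.957% in Ctrl 1, 2 and 3, highest in Ctrl 3. Near-identical nuclear copies were listed too, MTATP6P1 at a mean of 375 FPKM, so that counts of MT-ATP6 may be split between them.

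Ribosomal protein genes made up the largest class by number, with 38 of the top 100 and 8 of the top 20, among them RPS16, RPS2, RPL13A, RPLP1, RPL8, RPL41 and RPSA. Together 85 listed ribosomal protein genes, a list added after the values were seen, held 17.6% ± 0.596 of FPKM. Of them 84 were detected, beside 58.3% of all listed protein-coding genes. The exception, RPL3L, known as a muscle paralog of RPL3, had a mean of 0.013 FPKM. RPS10 stood at only 5.09, 5.48 and 4.84 FPKM while the read-through gene RPS10-NUDT3, which shares its exons, stood at 1096, 1103 and 807 FPKM. How reads on the shared exons were assigned cannot be told apart from these values, and the same holds for EEF1G and NME2, whose exons lie to 99.7% and 100% within other genes on the same strand.

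The remaining top 20 genes were keratins, AKR1B1, TMSB10, GAPDH and IFI6. AKR1B1, the aldose reductase that reduces glucose to sorbitol, stood at 4312, 4126 and 3390.3 FPKM. TMSB10, an actin monomer-binding thymosin, stood at 3058, 2895 and 2488 FPKM. GAPDH, the glycolytic dehydrogenase often used as a loading control, stood at 2939.7, 2913 and 2220.3 FPKM, and IFI6, an interferon-induced mitochondrial protein, at 2985, 2912 and 2000.1 FPKM. All 20 genes were lowest in Ctrl 3, as were 81 of the top 100. These levels are not rescaled, and Ctrl 3 also had the lowest FPKM sum. Over all detected genes Ctrl 3 was lowest in 42.8% and highest in 49.7%. The same 20 genes led without Ctrl 3. APEX1 itself ranked 420 at 129, 126 and 124 FPKM.

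**Figure D2:**
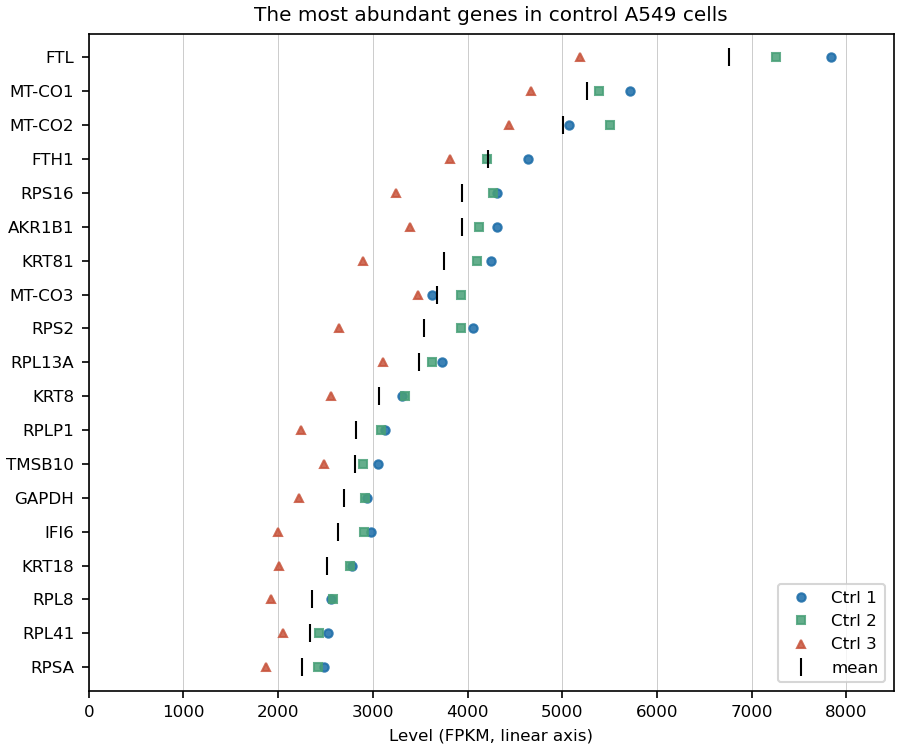
Level of 19 of the 20 most abundant genes (rows) in Ctrl 1, 2 and 3 (points) with the mean of the 3 libraries (vertical tick), in FPKM on a linear axis. FTL is at the top with a mean of 6761 FPKM, and in each row the triangle of Ctrl 3 is the lowest point.

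Keratins of simple epithelia were abundant beside a hair-type keratin. Of 42 listed keratin genes, 10 were detected, against 58.3% of listed protein-coding genes, and 27 lay below 0.1 FPKM. KRT81, a type II hair keratin, was the highest at 4251, 4102 and 2893 FPKM. KRT8 and KRT18, partners in the filaments of simple epithelia, stood at 3312, 3337 and 2558 FPKM and at 2777, 2763 and 2011 FPKM. Their ratio was 1.22 ± 0.0422 (SD, n = 3), the same order in each library. KRT7 had a mean of 1917 FPKM ± 319 and KRT19 one of 85.8 FPKM ± 15.96. KRT86, a close neighbour and relative of KRT81, stood at 144, 131 and 87.6 FPKM, and the pseudogene KRT87P at 168 FPKM, which leaves the split of reads among these copies uncertain. The basal keratins KRT5 and KRT14 were at means of 0.023 and 0.007 FPKM.

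Junction and adhesion genes ranged from high levels to below detection. The 24 epithelial markers include KRT7, KRT8, KRT18 and KRT19. Of the 24, 13 were detected, with and without Ctrl 3, beside 58.3% of all listed protein-coding genes. The median was 1.81 FPKM over the list, against 1.85 FPKM over all listed protein-coding genes. JUP, plakoglobin, was at a mean of 106 FPKM ± 15.8, and ELF3, an epithelial transcription factor, at 35.2 FPKM ± 4.42. CDH1, E-cadherin, stood at 6.93, 7.16 and 10.6 FPKM. EPCAM, an adhesion protein of most epithelia, stood at 0.25, 0.18 and 0.52 FPKM. Among further junction genes, CLDN1, CLDN2, CLDN3, TJP1 and DSP were detected. OCLN, CLDN4 and CLDN7 were not, at means of 0.860, 0.597 and 0.583 FPKM. The epithelial splicing regulators ESRP1 and ESRP2 and the transcription factors GRHL2 and OVOL1 all had means below 0.1 FPKM, with 0 to 8 counts per library.

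Mesenchymal genes were detected beside them. Of 18 markers, 14 were detected, beside 58.3% of all listed protein-coding genes, and none lay below 0.1 FPKM. S100A4, a calcium-binding protein linked to cell motility, had a mean of 1013 FPKM ± 177. TGFBI, a TGF-β-induced matrix protein, had one of 442 FPKM ± 23.7. VIM, the intermediate filament vimentin, stood at 219.7, 214.9 and 227.4 FPKM, and FN1, fibronectin, at 96.2, 97.0 and 164 FPKM. CDH2, N-cadherin, stood at 9.57, 11.2 and 19.3 FPKM, above CDH1 in every library, with a CDH1 to CDH2 ratio of 0.637 ± 0.0891 (SD, n = 3). Among the transcription factors, TWIST2 had a mean of 7.62 FPKM and SNAI1 one of 3.70 FPKM, while ZEB1 and ZEB2, repressors of CDH1, were below detection by their means. ZEB1 stood at 0.40, 0.42 and 1.09 FPKM, above 1 in Ctrl 3 only, and ZEB2 at 0.22, 0.25 and 0.47 FPKM.

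The label of a lung epithelial line was checked against lung markers, of which the defining ones were near 0. Of 19 markers of lung and alveolar type II cells, 16 were in the FPKM table, 7 were detected and 8 lay below 0.1 FPKM. The share detected over all listed protein-coding genes was 58.3%. NKX2-1, the transcription factor that specifies lung epithelium, had 3, 0 and 2 counts. The surfactant protein genes SFTPB and SFTPC had 4, 2 and 3 counts and 7, 1 and 0 counts, and SFTPA2 had 1, 1 and 0. In libraries of this depth a count of 0 allows up to 3 counts, or 0.107, 0.0872 and 0.0837 CPM (counts per 1000000), which covers counting error only. SFTPD, a collectin of innate defence, was the exception among the surfactant proteins at 3.39, 3.59 and 3.46 FPKM.

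Genes of lipid handling in the type II cell were present. LPCAT1, which makes the saturated phosphatidylcholine of surfactant, stood at 41.6, 43.3 and 45.5 FPKM. ABCA3, the lipid transporter of lamellar bodies, stood at 12.1, 11.8 and 9.92 FPKM, and LAMP3, a lamellar body membrane protein, at 4.59, 4.58 and 6.41 FPKM. ETV5, a transcription factor of type II cells, had a mean of 12.6 FPKM ± 0.506. CAV1, caveolin-1, a marker of the flat type I cell, was the highest of the list at 58.1, 57.9 and 90.3 FPKM. The other type I markers of the list went the other way. AGER had a mean of 0.497 FPKM and PDPN one of 0.007 FPKM, and HOPX and AQP5 were not in the FPKM table. Of the other airway markers, only MUC5B passed detection, at a mean of 1.09 FPKM, and the club cell gene SCGB1A1 was listed at 0.

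Endoderm and liver-type genes were detected at a share close to that of all listed protein-coding genes (58.3%). Of 24 such markers 23 were in the FPKM table and 15 were detected, with and without Ctrl 3. The 3 fibrinogen chains led, FGA at 68.7, 68.7 and 85.6 FPKM, FGG at 44.8, 39.7 and 64.9 FPKM and FGB at 11.5, 11.3 and 18.5 FPKM. FOXA2, a pioneer factor of foregut endoderm, had a mean of 11.2 FPKM ± 0.818. HNF4A, a regulator of liver and gut genes, stood at 1.82, 1.82 and 1.88 FPKM. ALB, TTR and APOA1, abundant secreted products of the hepatocyte, had means below 0.1 FPKM.

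Markers of other cell types were mostly undetected, while 58.3% of all listed protein-coding genes were detected. In RNA from a bulk culture, fewer cells of a type and less RNA per cell cannot be told apart. None of the 7 endothelial markers in the table was detected, and all 7 lay below 0.1 FPKM. Of 11 blood and immune markers in the table, CD14 (2.78 FPKM) and CD68 (1.28 FPKM) were detected, while CD3E, CD4 and LYZ were below 0.1 FPKM. Among fibroblast markers THY1 was detected, at 4.22 FPKM, and COL3A1, DCN and PDGFRA were below 0.1 FPKM. Among neuroendocrine markers CHGB was detected, at 1.45 FPKM, and NEUROD1 and INSM1 were below 0.1 FPKM. Of the squamous and basal markers KRT6A (1.79 FPKM), SOX2 (1.13 FPKM) and TP63 (1.08 FPKM) were detected, and without Ctrl 3 the number was 2, since TP63 stood at 0.9, 0.88 and 1.45 FPKM.

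**Figure D3:**
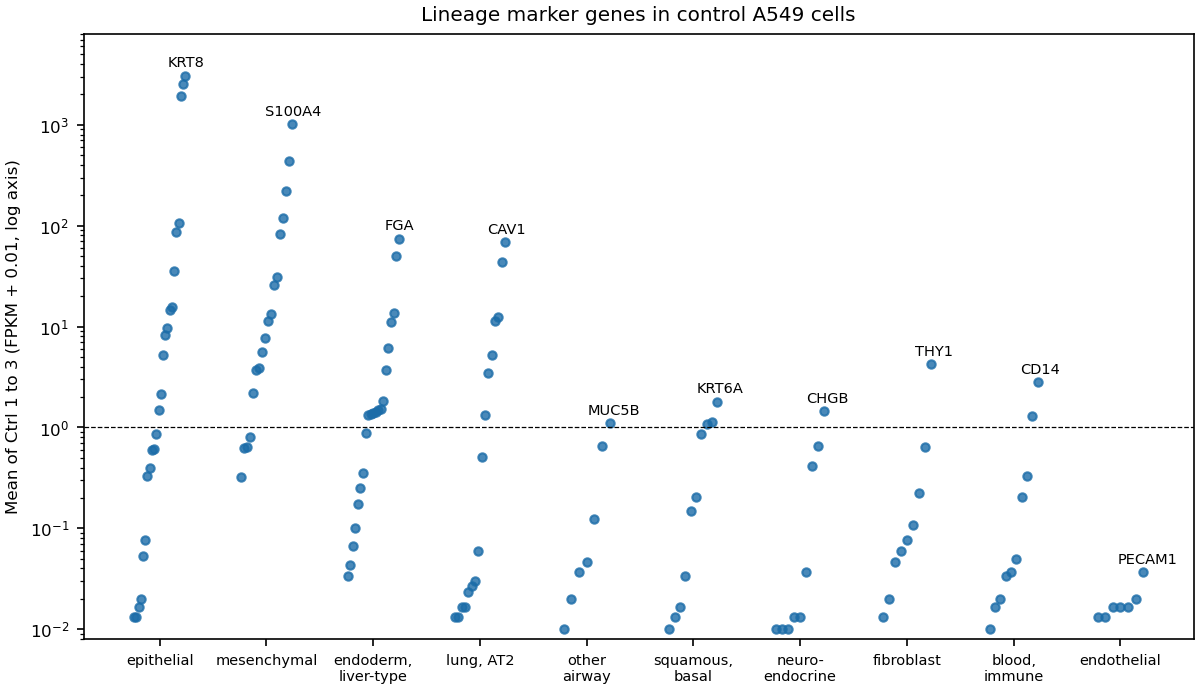
Mean level over Ctrl 1 to 3 of the markers reported here for 10 lineages (one point per gene, log axis of FPKM + 0.01), with the highest gene of each lineage named and a dashed line at 1 FPKM. Epithelial and mesenchymal markers reach above 1000 FPKM, endoderm and lung markers reach 74.3 and 68.8 FPKM, and all endothelial markers lie near 0.01.

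HOX genes, which keep positional identity along the body axis, were read by cluster, from clusters named after their values were seen. The share of all listed protein-coding genes detected, 58.3%, stands beside the counts that follow. The HOXB cluster had 7 of 9 listed genes detected, led by HOXB7 at 12.6, 13.5 and 13.1 FPKM, then HOXB8 and HOXB9. The HOXC cluster had 6 of 8, led by HOXC13 at 6.74, 6.94 and 5.29 FPKM. The HOXA cluster had 5 of 11, none above 3 FPKM in any library. The HOXD cluster had 0 of 8, and its highest gene, HOXD8, stood at 0.93, 0.84 and 1.18 FPKM.

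NRF2 target genes were abundant as a list. The list was chosen with earlier results of these data known. Of 39 list members, which include KEAP1 and NFE2L2 themselves, 38 were detected, beside 58.3% of all listed protein-coding genes. Of the 39, 34 reached 10 FPKM and 20 reached 100 FPKM. Of 17388 listed protein-coding genes, 3561 lay between 10 and 100 FPKM, 456 between 100 and 1000 FPKM and 56 at 1000 FPKM or more. The median of the 39 members was 108.7 FPKM, against 1.85 FPKM over all listed protein-coding genes, and they held 6.24% ± 0.169 of all FPKM. Without Ctrl 3 the number detected was again 38. Ctrl 3 was the highest library in 17 of the detected members and the lowest in 18. Over all detected genes it was the highest in 49.7% and the lowest in 42.8%. AKR1C4, known for its expression in liver, was the member not detected, at 0.833 FPKM ± 0.0351.

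The promoters of these genes were read for the element that NRF2 is known to bind. Promoters of 300 bases, 250 before and 50 after the RefSeq start on GRCh38.p14, were matched by symbol for 28 of the 39 members and searched on both strands for TGACNNNGC, the core of the antioxidant response element. The motif was found in 7 of 28 (25%), against 14.5% of 12738 promoters of listed protein-coding genes and 13.6% of all 27305 promoters. Among listed protein-coding genes the share was 16.2% at 10 to 100 FPKM and 18.3% at 100 FPKM or more. TATAAA was in 21.4% of the 28 promoters, against 7.37% of those of listed protein-coding genes. For 6 of the 7 genes with TGACNNNGC the 29 bases around the match are printed on the strand that reads the motif. The motif is in capitals, and the 6 matches show how its core varies at 3 open positions. A match is a description of letters and not evidence of binding.
PGD, chr1:10398853-10398881, minus strand: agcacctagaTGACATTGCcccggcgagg
TXNRD1, chr12:104215670-104215698, plus strand: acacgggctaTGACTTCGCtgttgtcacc
GPX2, chr14:64942849-64942877, plus strand: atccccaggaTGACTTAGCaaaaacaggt
CBR1, chr21:36069855-36069883, minus strand: ccagctagccTGACTTTGCagaacccgca
ME1, chr6:83431170-83431198, minus strand: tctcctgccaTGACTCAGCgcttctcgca
GCLM, chr1:93909446-93909474, plus strand: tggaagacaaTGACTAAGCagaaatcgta

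The centre of the motif lay 30 bases before the start of GCLM and 197 bases before that of PGD, with the others between. The levels of these 6 genes spanned a wide range. PGD, which makes NADPH in the pentose phosphate pathway, stood at 598, 593 and 525 FPKM. TXNRD1, thioredoxin reductase, stood at 159, 158 and 315 FPKM, and its transcript has 43.8% GC. GPX2, a glutathione peroxidase of epithelia, stood at 83.7, 85.7 and 65.2 FPKM and CBR1, a carbonyl reductase, at 69.3, 68.7 and 59.8 FPKM. ME1, the NADP-dependent malic enzyme, stood at 9.29, 8.82 and 16.2 FPKM, and GCLM, the modifier subunit of glutamate-cysteine ligase, at 8.95, 9.19 and 15.4 FPKM. Ctrl 3 was the highest library for TXNRD1, ME1 and GCLM and the lowest for PGD, GPX2 and CBR1.

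Detoxifying enzymes were the most abundant group of the list after ferritin and AKR1B1. ALDH3A1 and ALDH1A1, aldehyde dehydrogenases, stood at 1430.4, 1503 and 1068 FPKM and at 997, 989 and 1614 FPKM, so that which of them was higher depended on the library. AKR1B10, a reductase of retinal and lipid aldehydes, stood at 811, 780.0 and 828 FPKM. Among the AKR1C steroid reductases, AKR1C3 had a mean of 569 FPKM ± 42.6, AKR1C2 one of 419 FPKM ± 11.9 and AKR1C1 one of 149 FPKM ± 5.21. The ratio of AKR1C1 to AKR1C2 was 0.356 ± 0.0166 (SD, n = 3), although these near-identical genes share sequence and unique mapping can lower each of them. NQO1, the quinone reductase, stood at 479, 474 and 427 FPKM.

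Redox and iron members followed. Thioredoxin (TXN) had a mean of 468 FPKM ± 32.5, PRDX1, a peroxiredoxin, one of 524 FPKM ± 24.98, and HMOX1, haem oxygenase, one of 116 FPKM ± 19.02. GCLC, the catalytic subunit of glutamate-cysteine ligase, stood at 11.0, 11.2 and 20.2 FPKM, and SLC7A11, the cystine importer, at 4.06, 4.29 and 9.92 FPKM. The regulators lay in the lower part of the list. NFE2L2 stood at 3.51, 4.24 and 7.86 FPKM and KEAP1 at 23.6, 22.3 and 18.7 FPKM. Among iron genes outside the list, TFRC, the transferrin receptor, stood at 22.1, 22.8 and 40.3 FPKM and SLC40A1, the iron exporter ferroportin, at 2.07, 1.51 and 3.30 FPKM.

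**Figure D4:**
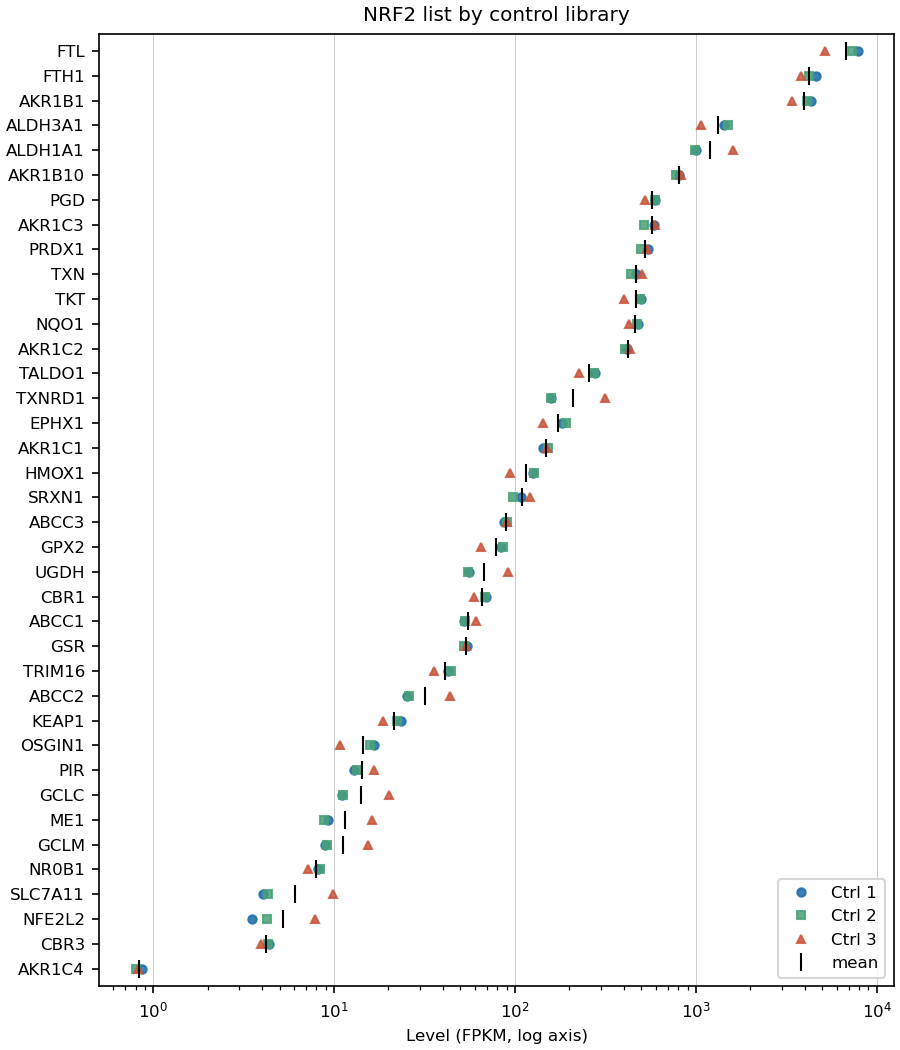
Level of 38 of the 39 members of the NRF2 list (rows) in Ctrl 1, 2 and 3 (points) with their mean (vertical tick), in FPKM on a log axis. Members run from 6761 FPKM for FTL to 0.833 FPKM for AKR1C4, and Ctrl 3 lies to the right of the others for TXNRD1, UGDH, GCLC, ME1 and SLC7A11.

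At several glycolytic steps one isoform stood far above its paralogs. Of 29 listed genes 21 were detected, beside 58.3% of all listed protein-coding genes, and 11 of the 21 reached 100 FPKM. After GAPDH came ENO1, enolase, at 1886, 1894 and 1493 FPKM and PKM, pyruvate kinase, at 1626, 1652 and 1322 FPKM. ENO1 exceeded ENO2, its neuronal paralog, 116 ± 1.74-fold (SD, n = 3). PKLR, the liver and red cell pyruvate kinase, was listed at 0 in every library, as was LDHC. HK1 exceeded HK2 by 83.9, 90.6 and 47.4-fold, at means of 35.2 and 0.517 FPKM. PFKP was the main phosphofructokinase, 4.41 ± 0.481 times PFKL and 7.64 ± 0.447 times PFKM. LDHA exceeded LDHB only by 1.31 ± 0.0742-fold (SD, n = 3), at means of 459 and 355 FPKM, and both were highest in Ctrl 3. Ctrl 3 was lowest in 15 of the 21 detected glycolysis genes, against 42.8% of all detected genes.

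Genes of pentose phosphate enzymes, which supply NADPH and pentoses, ranged from high levels to near 0. The 8 in the table had a median of 159 FPKM, with RPE at a mean of 6.99, RPIA at 5.29 and TKTL2 at 0.007 FPKM. Beside PGD, TKT and TALDO1, of the non-oxidative arm, had means of 465 FPKM ± 54.1 and 258 FPKM ± 28.3. Tricarboxylic acid cycle genes had a lower median, 21.0 FPKM. Of them 26 of 27 were detected, beside 58.3% of all listed protein-coding genes. Only MDH2, malate dehydrogenase, was above 100 FPKM, at 122 FPKM ± 16.4. IDH1, cytosolic isocitrate dehydrogenase, exceeded the mitochondrial IDH2 by 2.73, 2.80 and 5.13-fold. PCK1 was at 0.003 FPKM and PCK2, its mitochondrial form, at 9.08 FPKM.

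All 26 genes of lipid and cholesterol synthesis were detected, beside 58.3% of all listed protein-coding genes. ACLY, which makes cytosolic acetyl-CoA, stood at 105, 105 and 122 FPKM, SCD, the stearoyl-CoA desaturase, at 83.5, 89.6 and 112 FPKM, and FADS2, a fatty acid desaturase, at 95.7, 103 and 74.5 FPKM. FDPS, an enzyme of the mevalonate pathway, had a mean of 76.8 FPKM ± 9.38. ACACA exceeded ACACB 4.95 ± 1.15-fold (SD, n = 3).

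For amino acids, the exchanger of large neutral amino acids was highest. SLC7A5 and SLC3A2, its light and heavy chains, had means of 451 FPKM ± 67.1 and 457 FPKM ± 73.1. SLC1A5, a glutamine transporter, had one of 85.2 FPKM ± 12.9 and GOT2, the mitochondrial aspartate aminotransferase, one of 83.2 FPKM ± 2.66. SHMT2 exceeded the cytosolic SHMT1 3.19 ± 0.196-fold (SD, n = 3). CPS1, the carbamoyl-phosphate synthetase of the urea cycle, stood at 7.56, 7.30 and 12.4 FPKM and ASS1 had a mean of 49.1 FPKM ± 4.69.

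In the list of xenobiotic and steroid metabolism, 16 of 20 genes were detected, beside 58.3% of all listed protein-coding genes. The aldehyde dehydrogenases above led this list. GSTP1, a glutathione transferase, stood at 754, 730.3 and 501 FPKM and MGST1, its microsomal counterpart, at 207, 213 and 221 FPKM. CYP24A1, which inactivates vitamin D, was the highest cytochrome P450 of the list at 128, 129 and 192 FPKM. CYP1A1, the classical aryl hydrocarbon receptor target, had a mean of 0.353 FPKM and AHR, that receptor, one of 7.24 FPKM.

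Among receptor tyrosine kinases, 13 of the 27 in the table were detected, beside 58.3% of all listed protein-coding genes, and 8 reached 10 FPKM, none 100. EPHA2, an ephrin receptor, was the highest at 68.0, 71.0 and 56.0 FPKM, followed by AXL, the GAS6 receptor, at 28.5, 29.6 and 29.7 FPKM. ERBB2 stood at 17.5, 18.04 and 15.3 FPKM and EGFR at 6.48, 6.76 and 13.6 FPKM, so that their ratio was 0.370, 0.375 and 0.889. MET, the hepatocyte growth factor receptor, stood at 10.2, 10.2 and 24.1 FPKM. The EGFR and MET transcripts have 47.8% and 43.5% GC, and MET stood below ERBB2 in Ctrl 1 and 2 and above it in Ctrl 3. ALK, NTRK2, FGFR2, PDGFRA and PDGFRB were below 0.1 FPKM, and ROS1 stood at 0.36, 0.33 and 1.10 FPKM, above 1 in Ctrl 3 only. ERBB4 and KIT, listed in the count table only, had at most 1 count in a library.

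Paralogs of the RAS pathway differed widely in level. NRAS stood at 4.08, 4.20 and 6.78 FPKM and HRAS at 77.6, 77.6 and 49.97 FPKM, the same order in each library. The HRAS transcript has 64.3% GC, and Ctrl 3 was the lowest library for HRAS and the highest for NRAS. Of the RAF kinases, ARAF had a mean of 25.9 FPKM ± 5.72 and BRAF stood at 0.54, 0.46 and 1.41 FPKM. MAP2K2 had the highest mean of the oncogene list, at 181, 171 and 120.0 FPKM, although BCL2L1 stood above it in Ctrl 3, and MAP2K1 was 0.162, 0.168 and 0.273 times it.

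Oncogenes of the cell cycle and of survival spanned a wide range. MYC stood at 64.8, 67.2 and 65.1 FPKM, and MYCN at a mean of 0.037 FPKM. BCL2L1, an anti-apoptotic BCL2 relative, had a mean of 148 FPKM ± 20.1, and MCL1 stood at 34.9, 34.3 and 58.8 FPKM. CDK4 had a mean of 97.3 FPKM ± 17.5, and its ratio to CDK6 was 67.4, 64.5 and 20.1. CCND1 and CCND3, D-type cyclins, could not be ordered, with ratios of CCND1 to CCND3 of 0.710, 0.765 and 1.47, while CCND2 was at 0.023 FPKM. This was the only one of 30 paralog pairs whose order differed among libraries. PIK3CA had a mean of 0.363 FPKM and TERT, the telomerase catalytic subunit, one of 0.440 FPKM.

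Of 24 tumour suppressors in the table, 18 were detected, beside 58.3% of all listed protein-coding genes. CDKN1A, which encodes the cyclin-dependent kinase inhibitor p21, was the highest at 449, 424 and 310 FPKM. STK11, the kinase upstream of AMPK, stood at 28.6, 27.6 and 19.5 FPKM. SMARCA4, the ATPase of the SWI/SNF complex, stood at 1.83, 1.68 and 2.07 FPKM, below its paralog SMARCA2 in every library, with ratios of SMARCA2 to SMARCA4 of 1.21, 1.28 and 2.00. RB1, the retinoblastoma protein gene, stood at 1.54, 1.77 and 3.50 FPKM. The lowest was CDKN2A, which encodes p16 and p14ARF, with 0, 2 and 0 counts.

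The region around CDKN2A was read gene by gene. On chromosome 9 of GRCh38, 16 protein-coding genes in the table lie between FOCAD and DMRTA1, both included. Of them 3 were detected, beside 58.3% of all listed protein-coding genes. FOCAD, at chr9:20658309-20995955, stood at 5.26, 4.84 and 6.55 FPKM. KLHL9, an adaptor of a ubiquitin ligase at chr9:21329665-21335404, stood at 2.52, 2.54 and 5.05 FPKM. Between and beside them lie 10 interferon genes, of which IFNB1, at chr9:21077104-21077942, stood at 4.20, 3.24 and 3.23 FPKM from 123, 118 and 126 counts, while IFNA2 and IFNW1 were listed at 0.

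Further along, MTAP, the methylthioadenosine phosphorylase of the methionine salvage pathway, at chr9:21802636-21937651, stood at 0.36, 0.33 and 0.46 FPKM from 157, 180 and 269 counts. CDKN2A, at chr9:21967752-21995301 on the minus strand, followed with its 2 counts in all, and the antisense gene CDKN2B-AS1, which overlaps it, had 1, 2 and 2 counts. DMRTA1, at chr9:22446824-22455740, stood at 0.14, 0.20 and 0.23 FPKM from 27, 47 and 57 counts. The counts of MTAP and DMRTA1 lay above the floor of 3 counts in each library, and those of CDKN2A and CDKN2B-AS1 did not.

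**Figure D5:**
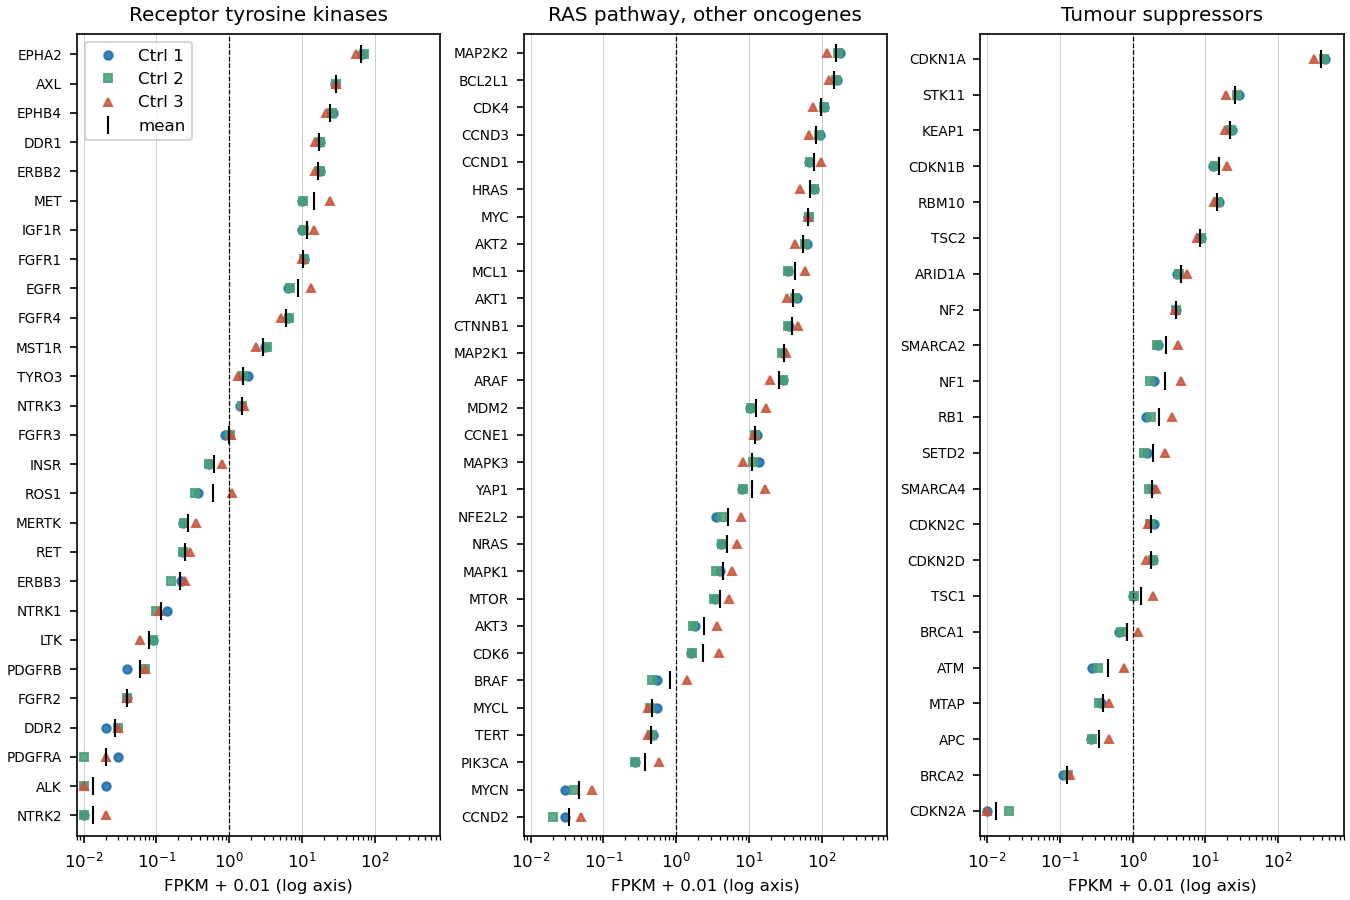
Level of receptor tyrosine kinases, oncogenes and tumour suppressors (rows, FPKM + 0.01 on a log axis) in Ctrl 1, 2 and 3 (points) with their mean (vertical tick) and a dashed line at 1 FPKM. CDKN1A and MAP2K2 head their panels at 394 and 157 FPKM, CDKN2A is at the lower end, and Ctrl 3 lies to the right of the others for MET, EGFR, NRAS and BRAF.

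Proliferation genes were all detected, 22 of 22, beside 58.3% of all listed protein-coding genes. PCNA, the DNA polymerase clamp, stood at 120, 105 and 116 FPKM and MCM7, of the replicative helicase, at 48.8, 48.4 and 38.1 FPKM. CCNB1, the mitotic cyclin B1, had a mean of 26.4 FPKM ± 0.948 and TYMS, thymidylate synthase, one of 26.1 FPKM ± 1.24. MKI67, a long transcript, was the lowest of the list at 1.35, 1.19 and 2.22 FPKM.

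Interferon genes and their targets formed a group noticed after the values were seen, and it gives no independent support to any choice made here. Of 35 such genes 34 were detected, with and without Ctrl 3, at a median of 43.8 FPKM, and they held 1.79% ± 0.174 of FPKM. The share detected over all listed protein-coding genes was 58.3%. Next to IFI6, ISG15, a ubiquitin-like modifier, stood at 1942, 1749 and 1133 FPKM and IFI27 had a mean of 424 FPKM ± 89.2. MX1, an antiviral GTPase, stood at 169, 169 and 161 FPKM and IFIT1, an RNA-binding antiviral protein, at 90.8, 81.7 and 143 FPKM. The ligands were lower, IFNL1, a type III interferon, at 14.1, 11.9 and 10.1 FPKM and IFNB1 as above. IRF9, a transcription factor of the interferon response, was listed at 0.01, 0.05 and 0.01 FPKM with 1, 4 and 1 counts, and 27.2% of its exon sequence lies within another gene on the same strand. Untransfected cells were not analysed here, so the part of the plasmid in these levels was not tested.

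Reference genes were all detected, 14 of 14, beside 58.3% of all listed protein-coding genes, and differed in how alike the libraries were. ACTB, β-actin, stood at 1948, 2017 and 1609 FPKM, PGK1 at 202, 201 and 194 FPKM, SDHA at 59.5, 58.5 and 57.2 FPKM and TBP at 6.34, 6.67 and 6.22 FPKM. YWHAZ stood at 41.2, 41.4 and 67.3 FPKM. The first 4 of these thus varied less than YWHAZ, and less than the detected genes' median CV of 16.9%, where the CV is the SD as a percent of the mean.

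Genes of other types contributed little. Protein-coding genes held 95.6% ± 0.489 of FPKM, antisense genes 1.35% ± 0.124, genes of the type miRNA 0.559% ± 0.0314 and lincRNAs 0.372% ± 0.0372 (SD, n = 3). The most abundant antisense gene, RP5-940J5.9, stood at 720, 858 and 762 FPKM, but all of its exon sequence lies opposite exons of GAPDH. RP11-290D2.6 and RP11-138I1.4, at means of 255 and 215 FPKM, lie opposite TPT1 and UBB in the same way. Of 598 detected antisense genes with a GENCODE entry, 274 have at least 50% of their exon sequence within exons of other genes. Their levels are therefore uncertain, since it was not stated whether counting used strand.

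Host genes of small nucleolar RNAs led the processed transcripts and the lincRNAs. LRRC75A-AS1 had a mean of 367 FPKM ± 29.9, and GAS5, a growth arrest transcript with snoRNAs in its introns, one of 194 FPKM ± 17.4. SNHG8 and SNHG19 led the lincRNAs at 86.5 FPKM ± 5.78 and 77.8 FPKM ± 7.90, and ZFAS1 stood at 124, 120 and 136 FPKM. The nuclear RNAs NEAT1 and MALAT1 stood at 5.87, 5.96 and 9.69 FPKM and at 2.96, 3.04 and 7.82 FPKM. The median over all detected genes was 5.95 FPKM. MALAT1 has 83.7% of its exon sequence opposite TALAM1. Entries of the type miRNA are gene loci and not mature miRNAs in libraries of polyadenylated RNA. The highest of them, AC021066.1 and AC026803.1, had means of 825 and 629 FPKM, and MIR1282, at 168 FPKM, lies within exons of SERF2 on the opposite strand. Among pseudogenes UBE2Q2P6 had a mean of 364 FPKM and RPS2P5, a copy of RPS2, one of 153 FPKM.

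The spread among the libraries differed from gene to gene. Over the 11499 detected genes the median CV was 16.9%, and without Ctrl 3 it was 4.09%. Among the 4238 genes of at least 10 FPKM, the lowest CV was that of HSPG2, the basement membrane proteoglycan perlecan, at 15.51, 15.48 and 15.46 FPKM, followed by PSMA7, OS9, BCAR3, EIF4A1, EMC3, C1R and CLDN2. C1R, a complement protease, stood at 204, 206 and 205 FPKM. EIF4A1 is counted with reserve, since 47.4% of its exon sequence lies within another gene on the same strand.

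At the other end, 19 of the 20 genes with the highest CV were highest in Ctrl 3. The exception, FP236383.4, of the type miRNA, led with 61.1, 0 and 14.9 FPKM from 102, 0 and 33 counts. After it came RP11-138C9.1, ADAM9, PAPPA, CP, PLOD2, AKAP12 and PDK4. PDK4, a kinase that inhibits pyruvate dehydrogenase, stood at 34.2, 32.9 and 80.7 FPKM, and ADAM9, a membrane metalloprotease, at 8.59, 10.1 and 24.3 FPKM. The median GC content of these 20 was 39.4%, against 53.7% over all genes of at least 10 FPKM. The 20 with the lowest CV had a median GC content of 52.1%, close to that 53.7%, and ranged from 41.3% to 64.5%.

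Promoter composition differed between genes below 0.1 FPKM and genes at higher levels. The GC box core GGGCGG, searched on both strands of the same 300-base promoters, was in 42.4% of promoters of listed protein-coding genes below 0.1 FPKM, 71.6% between 1 and 10 FPKM and 74.5% between 10 and 100 FPKM and 72.9% at 100 FPKM or more, against 64.1% over all of them. The median number of CpG in the window was 9 below 0.1 FPKM, 27 between 10 and 100 FPKM and 25 at 100 FPKM or more. TATAAA was in 14.4% of promoters below 0.1 FPKM, 4.71% between 1 and 10 FPKM and 9.81% at 100 FPKM or more. These shares are descriptions over genes and were not tested.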

How the data were processed

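RNA-seq of the 3 Ctrl libraries of A549 cells was used, with the group taken from the sample labels. The authors trimmed reads with the FASTX-Toolkit 0.0.13, dropped reads with more than 2 N bases or under 16 nt, and used tophat2 for alignment to GRCh38 at up to 4 mismatches. The deposited raw counts (32192 genes, not normalized) and the deposited FPKM values (31951 genes, rounded to 2 decimals) were both made by the authors from reads that mapped uniquely. The counting tool, annotation and strand setting were not given in the sources used here. The labels' processing notes also name bcl2fastq and edgeR.

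Means, SDs, CVs and ratios were computed from the FPKM values in Python 3.11.15 with pandas 2.3.3. Counts gave depth and floors (3 counts, counting error only). No test was run, since 3 libraries of 1 group allow none. A gene was detected at a mean of 1 FPKM. Where 2 entries share a symbol, the higher was used. TMM factors for an alternative came from edgeR 4.0.16 in R 4.3.3. Of the steps, only the median CV and the trend of a library ratio with GC content were tested on simulated data. GC content, transcript length and exon overlap came from GENCODE 44, in which 97.0% of identifiers were found, and promoters from RefSeq (GRCh38.p14).

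Genes were named by a rule: the 20 highest, the highest of each common non-coding type, the 4 highest and the lowest members of each of 23 lists and the members a role-based account needs, 30 paralog pairs, the 8 highest and 8 lowest CVs, APEX1 and GAPDH. The members and lists were chosen with earlier results of these data known. Interferon, iron, keratin, ribosomal and HOX lists were added after the values were seen. Of 443 list genes, 424 were in the FPKM table, 6 in the count table only and 13 in neither. Some genes are not reported here.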

Additional observations from a re-analysis of the deposited data

How the results depend on the processing

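With detection at a mean of 5 FPKM, 6328 genes and 5995 protein-coding genes remained. By share of counts in place of FPKM, the top 10 genes held 7.62% and protein-coding genes 97.8%, and without mitochondrial genes the latter held 96.2% of FPKM. The median CV was 15.8% after rescaling each library to a sum of 1000000, 18.04% for CPM with TMM factors, 35% without a filter on low values and 14.3% at 10 FPKM or more. Leaving out 1 library moved it between 4.09% (without Ctrl 3) and 20.1%. The other 29 of 41 alternatives for the main values stayed within their limits, although some of them moved the number of detected genes widely. Against 11499 detected genes, 14413 were detected after the same rescaling and 15837 at 10 or more counts in each library. For protein-coding genes the numbers were 11793 and 13179, against 10137. The log2 ratio of CCND1 to CCND3, -0.11 over all libraries, lay between -0.44 (without Ctrl 3) and 0.083 (without Ctrl 1) when 1 library was left out, and was 0.030 without Ctrl 2. Of 138 alternatives for the number of detected list members 128 stayed within their limits, and of 116 for paralog ratios 107. The ratio of PKM to PKLR has no value, since PKLR is listed at 0. The cause of these movements was not tested. The 3 libraries, with Ctrl 3 apart, limit the precision of every mean, and levels of overlapping or near-identical genes are uncertain at any depth. No paired analysis was possible because the values come from 1 group and from no test.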
